A study of Ogataea polymorpha NCYC 495 leu1.1 with 8 samples.

Results

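The data describe 80 genes of the methylotrophic yeast Hansenula polymorpha whose signal rose at least 10-fold within 2 h of a shift from glucose to methanol and whose signal on glucose was the lowest among the genes that rose that far. For each gene probe, the log2 signal was averaged over its spots, over the dye swap and over the 4 cultures. Of 5999 gene probes, 195 (3.25%) had a methanol signal at least 10 times the glucose signal and a mean log2 signal over both conditions (the A-value) of at least 6. After 17 of these were left out by name, the 80 with the lowest glucose level were kept, and the other 98 serve as the comparison. The choice thus used the rise and both levels, so that these values are given below as a description without a test.

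Both groups were strain NCYC 495 leu1.1, an auxotrophic laboratory strain that carries the leu1.1 allele. Batch cultures were grown on glucose in mineral medium with ammonium sulphate as the nitrogen source at 37 °C, and the glucose sample was taken at the moment of the shift, at an OD660 of 2.3. The same cultures were then brought into fresh medium with 0.5% methanol at an OD660 of 0.2, and the methanol sample was taken 2 h later. The carbon source, the fresh medium and the lower cell density changed together and cannot be told apart. RNA of each of the 4 independent cultures was hybridised on 2 arrays with the dyes exchanged (methanol in Cy5 on one, in Cy3 on its swap), which gave 8 arrays that each held both conditions.

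In a methylotrophic yeast, methanol is oxidised to formaldehyde in peroxisomes. Formaldehyde is then either oxidised to carbon dioxide, which yields NADH, or built into sugar phosphates by dihydroxyacetone synthase. Glucose keeps the genes of this pathway, and many genes for other carbon sources, repressed. Complex I is the proton-pumping NADH dehydrogenase of the mitochondrial respiratory chain, which H. polymorpha has and Saccharomyces cerevisiae lacks.

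The share of gene probes flagged as well above background ran from 91.3% to 98.6% over the channels, and the median signal of a gene probe from 1595 to 3213 units. The methanol-to-glucose ratios of all genes correlated between cultures with r from 0.89 to 0.98, across genes that are not independent replicates. The 3 lowest of these values, from 0.89 to 0.93, were those of culture 1. In the fit over all genes, 1145 (19.1%) were called up and 1283 (21.4%) were called down, which is the background for the calls on neighbouring and listed genes below.

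The 80 genes were dim on glucose but most of them were not silent. Their glucose levels ran from 3.35 to 8.94 on the log2 scale with a median of 7.25, which is a signal of 153 units. The median glucose level over all gene probes was 11.21. Signals of different probes are not calibrated against each other, so this is an order of probe brightness and not of transcript number. On the scale of all 5999 probes the 80 genes lay between the 2.75th and the 23.8th percentile on glucose. Of the 80, 67 were flagged by the image software as well above background in the glucose channel of all 8 arrays, and 13 on 3 to 7 arrays. A gene counted as well above background on an array when either of its spots carried the flag. Requiring the flag on both spots could only lower the number of arrays counted for a gene and was not tested. None was below background on every array. The flag was lowest for Hp27g554, which was well above background on 3 of the 8 arrays, and for Hp5g450a, Hp9g402 and Hp27g606, on 4 each. On methanol all 80 were well above background on all 8 arrays. By this either-spot rule the 80 genes are called weakly expressed on glucose rather than silent.

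The 77 negative control spots of each array, which match no yeast sequence, gave a second reading of the same question. Their median in the glucose channel lay between 0.97 and 2.91 on the log2 scale, and the array medians of the 80 genes lay between 6.58 and 7.80. The highest single control spot was far more variable, from 2.01 on an array of culture 1 to 7.89 on an array of culture 3. On that culture 3 array 63 of the 80 genes read at or below this one spot, and on the most separated array none did. The arrays of culture 3 thus had the least distance between the 80 genes on glucose and the top of the background.

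**Figure D1:**
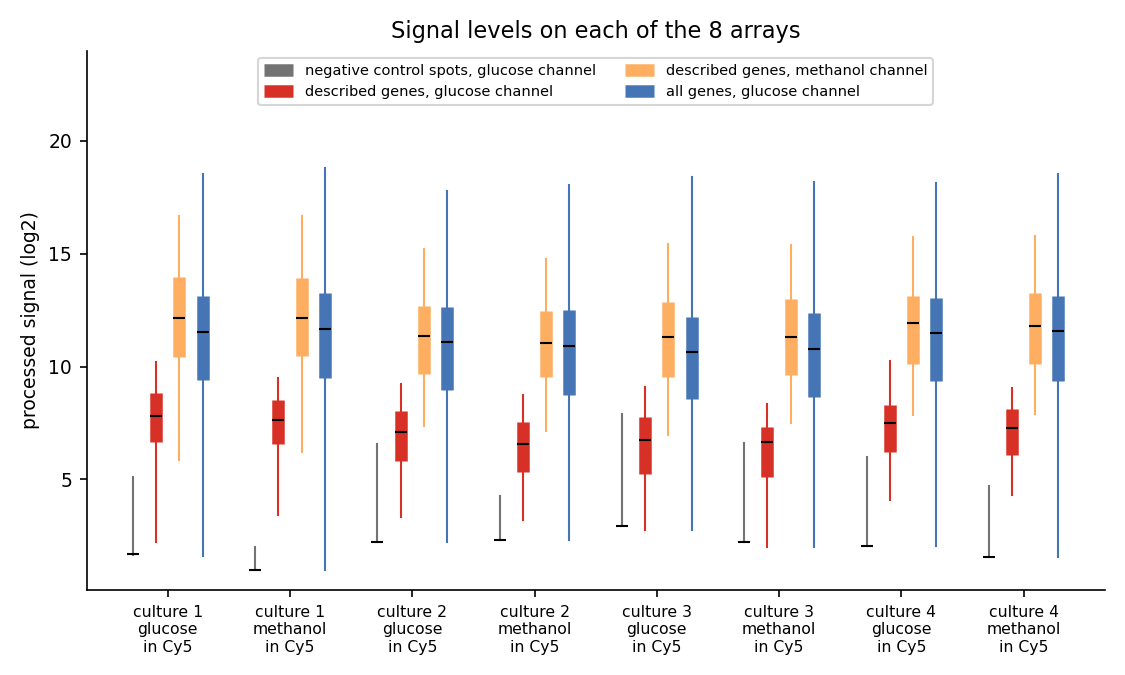
Processed signal on the log2 scale (y axis) on each of the 8 arrays (x axis). Thick bars span the values from the lower to the upper quartile, thin lines the full range and black ticks the median, for the negative control spots and the 80 genes and all genes in the glucose channel and for the 80 genes in the methanol channel; the control spots have nearly no spread besides a few high spots. The median of the 80 genes on glucose lies above the median of the control spots and below that of all genes on every array, and on both arrays of culture 3 the lowest of the 80 lies below the median control spot.

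After 2 h on methanol the 80 genes had reached levels from 7.84 to 15.60, with a median of 11.48 against 11.17 over all gene probes. Thus 45 of the 80 ended above the median probe, but only 4 came into the highest 5%. The rise had a median of 4.54 on the log2 scale, or 23.3-fold, and ran from 10.1-fold to 200-fold. It was over 100-fold for 4 genes, over 50-fold for 16, and at most 20-fold for 33. Over all genes the median log2 ratio was 0.04. The 98 other genes past the same limits rose by a median of 20.5-fold from a median glucose level of 10.48 and reached a median of 15.20 on methanol. In RNA of whole cultures, more transcript in every cell and expression in a larger share of the cells cannot be told apart.

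The size of the rise depended on how background was treated. With normexp, a model-based background correction to which an offset of 50 was added, followed by loess, the median log2 rise of the 80 genes was 3.95 and 54 of them stayed at 10-fold or more. With loess on mean signals and no background subtraction it was 4.13, and 57 stayed. All of the 43 genes followed by name rose less under either setting. With normexp and loess the log2 rise was smaller by 0.11 to 2.27, the fold moved by more than 1.5 times for 19 of the 43, and 13 of them came under 10-fold. The folds of these 19 genes are given below beside the main ones, as the fold after normexp.

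**Figure D2:**
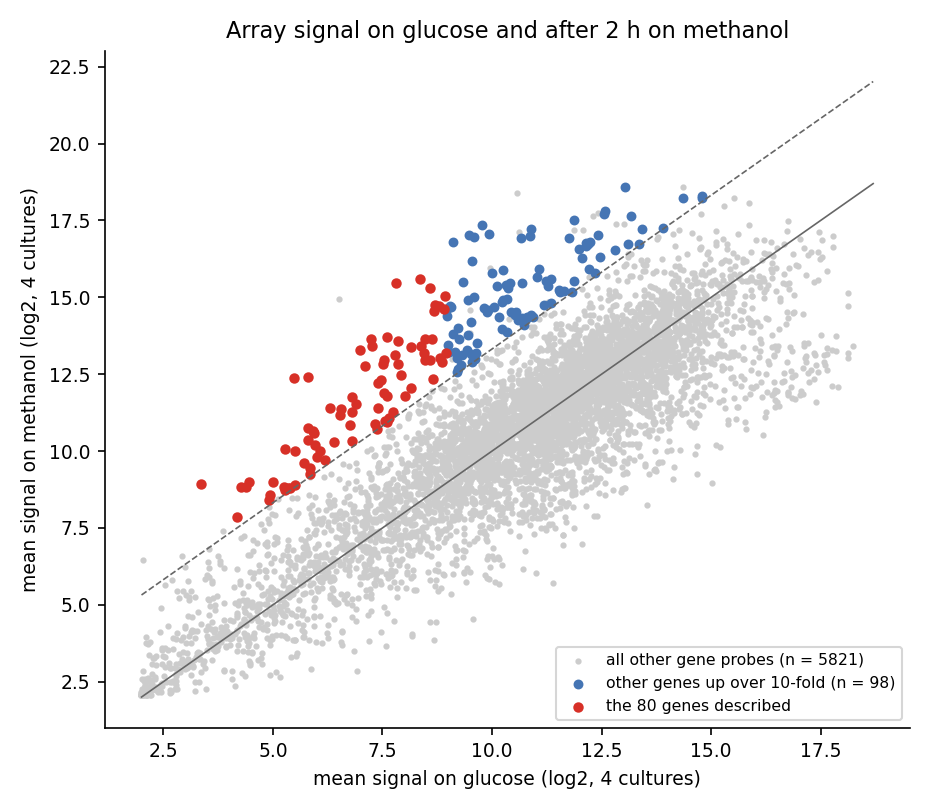
Mean log2 signal of each gene probe on glucose (x axis) and on methanol (y axis) over 4 cultures. The 80 genes described (red) and the 98 other genes up over 10-fold (blue) lie above the dashed line of a 10-fold rise, and the solid line marks equal levels. The red points run from 3.35 to 8.94 on glucose and from 7.84 to 15.60 on methanol.

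At the limits of the choice, Hp8g108 rose 10.1-fold and Hp13g47 10.2-fold, while Hp15g333 at 9.97-fold and Hp15g804 at 9.92-fold were just outside. The lowest A-values were 6.01 for Hp5g450a and 6.15 for Hp27g554, and Hp33g99 at 5.63 and Hp13g50 at 4.75 were left out. Hp1g503 and Hp15g536 had the highest glucose levels, 8.93 and 8.94, and Hp20g18 at 8.97, with Hp1g67 also at 8.97, came next.

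The methanol level lay above the glucose level in all pairs of cultures for 79 of the 80 genes. Since the choice used this contrast, nothing is read from that count; over all genes it held for 1199 of 5999 (20%). The exception was Hp33g149, described below. In single cultures the smallest log2 rise was 2.05 and the largest 7.82. A 10-fold rise was reached in every one of the 4 cultures by 55 genes, and by 66, 71, 78 and 69 of the 80 in cultures 1 to 4.

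The rise was also read in cultures that took no part in the choice. When the same rule was applied to 3 cultures and the chosen 80 genes were read in the fourth, the median log2 rise was 4.63, 4.30, 4.92 and 4.44 in cultures 1 to 4. In the cultures used for the choice, those lists had medians between 4.52 and 4.65. At least 10-fold was kept by 62, 66, 78 and 68 genes, and a 2-fold rise was passed by 79 genes in culture 1 and by all 80 in each of the others. The gene below 2-fold in culture 1 was Hp47g127, at 0.54 on the log2 scale, named after its value was seen; it is not one of the 80. The glucose levels of the chosen genes stayed low in the culture left out, with medians between the 12.7th and the 15.1th percentile. The 4 lists held 74 or 75 of the 80 genes. Chosen on the arrays of one dye orientation and read on the other, 75 and 73 of the 80 were at least 10-fold higher on methanol. Both orientations carry the same RNA of the same cultures, so this repeats the labelling and hybridisation only.

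The largest rise was that of Hp24g666, whose best match in the study's annotation is a human protein of unnamed function. It read 8.47, 7.28, 7.43 and 8.09 on glucose in cultures 1 to 4 and 16.04, 14.95, 15.25 and 15.59 on methanol, on the log2 scale. The rise was 7.64 ± 0.137 (SD, n = 4), 200-fold, with little difference between cultures. Hp24g668, the nearest member on the same contig and without a match in the annotation, rose 70.9-fold. Next came Hp33g394, also without a match, with 9.04, 8.04, 7.83 and 8.54 on glucose and 16.67, 14.72, 15.32 and 15.69 on methanol. It rose 151-fold and was the brightest of the 80 on methanol.

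Hp27g604 resembles S. cerevisiae YOL154w (ZPS1), which encodes a cell wall protein that is made when zinc is short. It had 6.61, 4.71, 5.15 and 5.46 on glucose and 14.01, 11.33, 12.26 and 11.87 on methanol, a 118-fold rise (58.5-fold after normexp). Culture 1 was the highest of the 4 in both conditions, as it was for the median of all genes (11.57 on glucose and 11.55 on methanol). Hp9g432, which resembles a bacterial enzyme of the mandelate racemase family, had log2 rises of 6.59, 6.26, 6.89 and 7.11 in cultures 1 to 4, or 105-fold on average. Hp26g416 resembles AMA1, which in S. cerevisiae directs the anaphase-promoting complex during meiosis. Its log2 rises were 6.73, 6.62, 6.80 and 6.19, or 96.0-fold (53.4-fold after normexp). Hp1g503, a threonine aldolase by its match, which makes glycine from threonine, rose 68.4-fold and was among the 5 brightest on methanol.

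The lowest glucose levels belonged to Hp27g554, Hp5g450a, Hp42g356, Hp9g402 and Hp27g606, of which Hp5g450a, Hp42g356 and Hp27g606 have no match in the annotation. Hp27g554 resembles a bacterial ribose 5-phosphate isomerase, an enzyme that interconverts pentose phosphates. It read 2.82, 3.26, 2.38 and 4.95 on glucose and 6.03, 9.49, 8.95 and 11.31 on methanol. Its log2 rises of 3.21, 6.23, 6.57 and 6.36 were nearly equal in cultures 2 to 4 and much smaller in culture 1, with a mean of 5.59 ± 1.59 (SD, n = 4), which is 48.2-fold. After normexp this was 10-fold, the largest shift among the genes followed by name. In 6 of its 16 glucose readings the software had replaced a signal at background by a surrogate value, so that its glucose level rests in part on replaced values. Surrogate values entered for only 2 other members, with 1 reading each, Hp5g450a and Hp42g356. In this group the rise of the genes without a match was 12.7-fold for Hp5g450a, 23.7-fold for Hp42g356 and 23.3-fold for Hp27g606. After normexp these came to 3.95-fold, 7.19-fold and 7.98-fold, so that none of these 3 genes stayed at 10-fold.

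Of the 80 genes, 28 have no match in the study's annotation. Their median rise was 23.3-fold, and that of the 52 genes with a match was 23.7-fold. The groups of genes below were put together from that annotation. It could be read here only for the genes with the larger ratios, so that the lists hold induced genes by construction, and the shares of listed genes called up are no evidence of a direction.

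Genes for polyols and other sugars formed the largest group, with 10 of the 80. Hp27g539 resembles L-arabinitol 4-dehydrogenase of Hypocrea jecorina, which oxidises a pentose alcohol. It had 6.66, 6.70, 6.42 and 7.42 on glucose and 10.42, 11.42, 11.14 and 12.08 on methanol, and rose 22.1-fold. Hp27g541 resembles SOU1, a sorbitol utilisation protein of Candida albicans, and rose 34.2-fold (22.1-fold after normexp) with log2 ratios of 4.12, 5.39, 5.57 and 5.30. Both genes rose least in culture 1.

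A pair of transporters belonged to this group. Hp33g87, related to the myo-inositol transporter ITR1, had log2 rises of 4.63, 4.60, 4.85 and 4.44, or 24.8-fold, which hardly differed between cultures. Hp27g552, a probable sugar transporter by its match in Neurospora crassa, rose 13.7-fold. Hp31g627 resembles DAS1, the dihydroxyacetone synthase of Candida boidinii, which joins formaldehyde to xylulose 5-phosphate in peroxisomes. It had 6.38, 5.83, 5.35 and 6.48 on glucose and 9.55, 9.71, 9.60 and 10.36 on methanol, which was a 13.9-fold rise (8.15-fold after normexp) to a level still at the 32.5th percentile of all probes. A resemblance by match does not make Hp31g627 the dihydroxyacetone synthase that the paper describes for methanol assimilation, and its role was not measured.

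Hydrolases and a regulator rose least in the group. Hp51r2723 resembles an Aspergillus alpha-L-rhamnosidase, which removes rhamnose from glycosides. Its log2 rises of 3.41, 3.62, 3.49 and 3.57 were the most even of all 80 genes, with an SD of 0.0915 and a mean of 11.5-fold (7.06-fold after normexp). Hp51r2269, with a rhamnosidase domain, rose 11.9-fold (5.45-fold after normexp). Hp35g9, similar to a glucan 1,3-beta-glucosidase that cuts cell wall glucan, rose 10.6-fold (6.0-fold after normexp). Hp13g47, whose match SUC1 of Candida albicans is needed for the use of sucrose, rose 10.2-fold (8.46-fold after normexp). None of these 4 genes thus stayed at 10-fold under that setting.

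Of the 39 other genes in the polyol and sugar list, 35 were called up and none down by limma's moderated test with Benjamini-Hochberg adjustment. Their median log2 ratio was 3.28, against 0.04 over all genes, a contrast set by reading the list from genes with larger ratios. Their median glucose level was 10.42 against 6.24 for the 10 members, which were kept for their low glucose levels. The largest rises among them were those of Hp27g562, a beta-glucosidase by its match, with a log2 ratio of 7.69 (adjusted p = 2.1e-06) and Hp27g608, a sugar transporter-like protein, with 7.56. Hp31g16, with 0.40 (adjusted p = 0.217), was one of the 4 that were not called.

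Genes for nitrogen compounds made up 6 of the 80, with glucose levels at a median of 5.79. Hp9g402 resembles urea amidolyase, which breaks urea down to ammonia and carbon dioxide, and read 5.07, 3.77, 3.73 and 5.0 on glucose and 10.19, 8.12, 8.11 and 8.88 on methanol. Hp9g403, its neighbour by number, resembles the urea transporter of S. cerevisiae and read 6.58, 5.67, 5.42 and 6.64 on glucose and 10.16, 9.89, 9.55 and 10.42 on methanol. The rises were 21.6-fold for the amidolyase and 15.2-fold for the transporter. Glucose and methanol levels did not overlap for either, as for 79 of the 80 genes, a contrast that the choice used. After normexp the rises were 7.07-fold and 9.06-fold, both under the limit of the choice.

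Both amino acid permeases of this group differed between cultures. Hp28g200 resembles the general amino acid permease Gap1 of C. albicans, with log2 rises of 5.58, 4.40, 4.34 and 3.64 and a mean of 22.4-fold (11.1-fold after normexp). Hp25g640 resembles S. cerevisiae YFL055w (AGP3), another amino acid permease, with log2 rises of 2.94, 4.03, 4.64 and 4.46 and a mean of 16.2-fold. Culture 1 was thus the highest of the 4 for the first and the lowest for the second. Hp5g146, a proline oxidase by its match, which starts the breakdown of proline, rose 21.1-fold, and Hp27g569, similar to a bacterial hydantoinase, rose 10.5-fold (5.28-fold after normexp) with log2 values from 2.05 in culture 1 to 4.30 in culture 3. Of the 27 other listed genes for nitrogen compounds, 20 were called up and none down, with a median log2 ratio of 1.86 and a largest value of 3.53.

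Subunits and an assembly factor of complex I made up 5 of the 80. Hp33g178, matching a bovine 13K chain, had 8.21, 7.13, 7.0 and 7.72 on glucose and 13.65, 12.30, 12.48 and 12.96 on methanol, and rose 40.3-fold with an SD of 0.153 on the log2 scale. Hp15g196, matching the NUKM subunit of Yarrowia lipolytica, had log2 rises of 5.07, 4.85, 5.31 and 4.64, or 31.3-fold. The rise was 28.3-fold for Hp44g189, similar to CIA30, which in N. crassa helps to assemble the complex. It was 26.9-fold (15.4-fold after normexp) for Hp7g64, a small ubiquinone-binding protein by its match, and 19-fold for Hp15g536, a 14.8-kilodalton subunit. All 5 had at least a 10-fold rise in each culture, as did 55 of the 80 genes, which were chosen by their mean rise.

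The 23 listed complex I genes held 13 of the other genes over 10-fold besides these 5. Of the 18 listed genes outside the 80, 15 were called up and none down, with a median log2 ratio of 4.23. Their median glucose level was 10.26, against 7.41 for the 5 members, which were kept for their low glucose levels. Hp47g1065 had the largest log2 ratio of the 18, 6.64. The 3 that were not called, Hp51r4540, Hp51r2531 and Hp51r4835, had A-values under 6.

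Possible regulators made up another 5 of the 80, all well above background on glucose on every array. Hp9g430 resembles CAT8, a zinc cluster activator that in S. cerevisiae turns on genes for non-fermentable carbon sources. It read 8.83, 8.35, 7.85 and 7.57 on glucose and 13.49, 13.14, 13.00 and 13.88 on methanol, with log2 rises of 4.66, 4.78, 5.15 and 6.31. The rise was largest in culture 4, and the mean was 37.5-fold. Hp24g240 resembles S. cerevisiae YGR067c, a zinc finger protein, and rose 36.0-fold. Hp33g39 resembles the C. albicans transcription factor CZF1 and rose 32.6-fold, with log2 rises between 4.87 and 5.20.

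The 2 remaining regulators rose less. Hp24g1134 resembles HEX2 (REG1), a subunit that in S. cerevisiae guides protein phosphatase 1 in glucose repression, and rose 22.7-fold. Hp42g240 resembles GAL4, the S. cerevisiae activator of the galactose genes, and rose 16.3-fold, with log2 values of 3.55, 3.71, 4.25 and 4.61. These matches rest on sequence similarity alone, and the function of these genes in H. polymorpha was not measured. All 8 listed regulators outside the 80 were called up.

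A group of 5 genes resembles genes that S. cerevisiae and C. albicans use in spore formation, mating or the cell surface. Besides Hp27g604 and Hp26g416, given above, it holds Hp7g17, which resembles PRM1 (YNL279w), a membrane protein of cell fusion during mating. Hp7g17 had log2 rises of 6.11, 6.16, 6.18 and 5.73, or 65.9-fold. Hp39g790 resembles CDA2 (YLR308w), a chitin deacetylase that in S. cerevisiae makes the chitosan of the spore wall, and rose 19-fold (11-fold after normexp). Hp12g435 resembles MNN4, which is needed for mannosylphosphate on cell wall glycans, and had log2 rises of 3.17, 5.50, 5.29 and 5.22. It was nearly the same in cultures 2 to 4 and lower in culture 1. The sixth listed gene, Hp32g499, had a log2 ratio of 2.98 and was called up.

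Cultures did not rank the same for all genes. The median log2 rise of the 80 genes was 4.63, 4.37, 4.84 and 4.44 in cultures 1 to 4. Culture 3 gave the largest rise for 41 of the 80 genes (51.2%) and the smallest for 2. Among the 98 other genes over 10-fold culture 3 was the highest for 46 (46.9%), and among all genes for 19.4%. The arrays of culture 3 were also the dimmest, with the highest control spots, and the part of this in the larger rises was not tested. Cultures 1 and 2 lay in one row of the slide and cultures 3 and 4 in the other. The median rise was 4.47 in the first row and 4.64 in the second.

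The spread between cultures, as the SD of the log2 rise, had a median of 0.424 over the 80 genes, 0.354 over the 98 other genes over 10-fold and 0.256 over all genes. It was largest for Hp33g149, Hp27g554 and Hp47g243. Hp33g149, with no match in the annotation, read 8.14, 5.19, 4.16 and 5.75 on glucose and 15.04, 9.98, 10.09 and 7.91 on methanol. In culture 4 it reached 7.91 on methanol, below the 8.14 of culture 1 on glucose, although it rose in each culture. Its log2 rises of 6.90, 4.79, 5.92 and 2.16 gave a mean of 4.94 ± 2.04 (SD, n = 4), or 30.8-fold (15.7-fold after normexp). Hp47g243, similar to a P-type ATPase of Schwanniomyces occidentalis that moves cations across membranes, had log2 rises of 5.33, 2.17, 3.93 and 2.91, or 12-fold on average (7.01-fold after normexp). The mean rise stayed at 10-fold or more for 75 of the 80 genes without culture 1 or without culture 3, for 79 without culture 4 and for all 80 without culture 2.

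**Figure D3:**
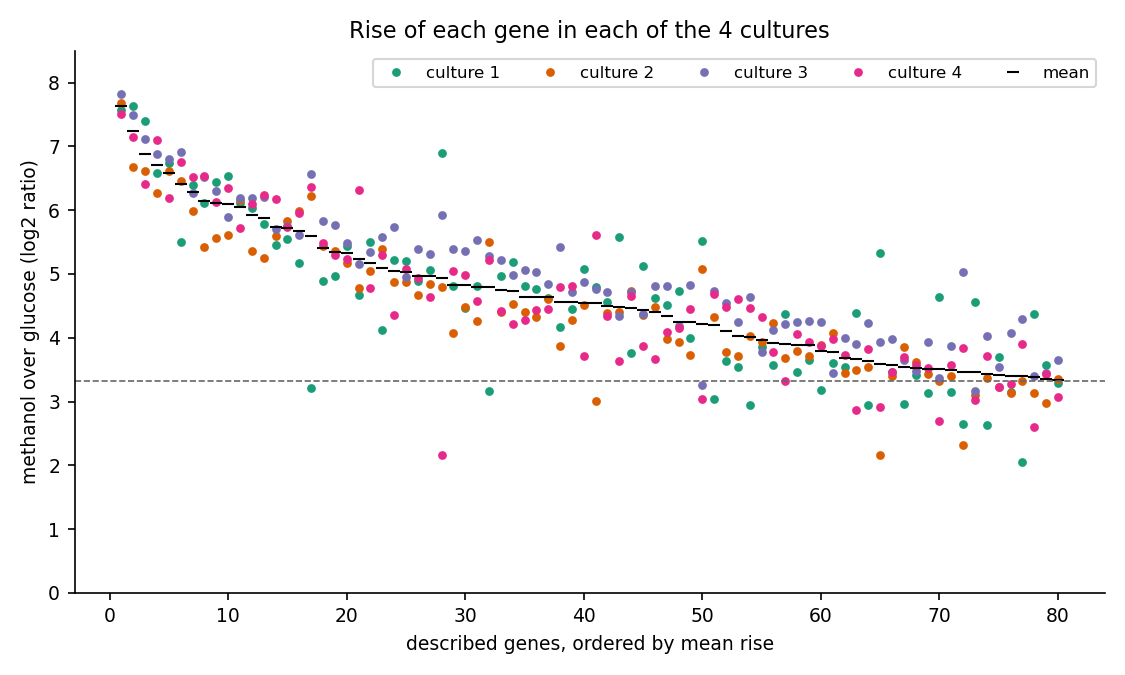
Log2 ratio of methanol to glucose (y axis) of each of the 80 genes, ordered by the mean (x axis), with a point for each of the 4 cultures and a black tick for the mean. The dashed line marks a 10-fold rise. All points lie above 2, and the points of most genes lie within 1 unit of the mean. Wide exceptions include Hp33g149, at 6.90 in culture 1 and 2.16 in culture 4, and Hp27g554, at 3.21 in culture 1 against a mean of 5.59.

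The 2 arrays of a culture carried the same RNA with the dyes exchanged, and the choice used the mean of their ratios. Across genes the difference between them was not unrelated to the rise, with a median of 0.22 on the log2 scale over the 80 genes, 0.41 over the 98 other genes over 10-fold and -0.03 over all genes. The counts of calls are therefore a description of these genes. A difference between orientations was called for 38 of the 80 genes (47.5%), against 36.3% of all genes (limma, adjusted p under 0.05). Of these, 35 had the larger ratio with methanol in Cy5, or 43.8% of the 80 against 15.2% of all genes, and 3 the larger ratio with glucose in Cy5, against 21.1% of all genes. Among the 98 other genes over 10-fold, 71 were called, 67 of them with the larger ratio with methanol in Cy5. The other strongly induced genes thus leaned the same way, and whether the 2 sets differ was not tested. Without culture 2, 25 of the 80 genes were called, when 18.5% of all genes were.

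A rise of at least 10-fold was found in 77 of the 80 genes in each orientation, with different genes falling short. The differences between orientations were small beside the rises. The largest was that of Hp14g86, whose match has a weak similarity to taurine dioxygenase, with a rise of 36.1-fold where glucose was in Cy5 and of 76.4-fold on the dye swaps. This difference was 1.08 ± 0.0828 (SD, n = 4, adjusted p = 0.00068). The rises between cultures were almost equal for the same gene, with log2 values of 5.55, 5.83, 5.75 and 5.74, so that the dye moved its value more than the culture did. Hp7g17 followed with 47.9-fold and 90.9-fold (difference 0.93 ± 0.325, adjusted p = 0.0064) and Hp24g666 with 147-fold and 271-fold (difference 0.88 ± 0.122, adjusted p = 0.0017).

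**Figure D4:**
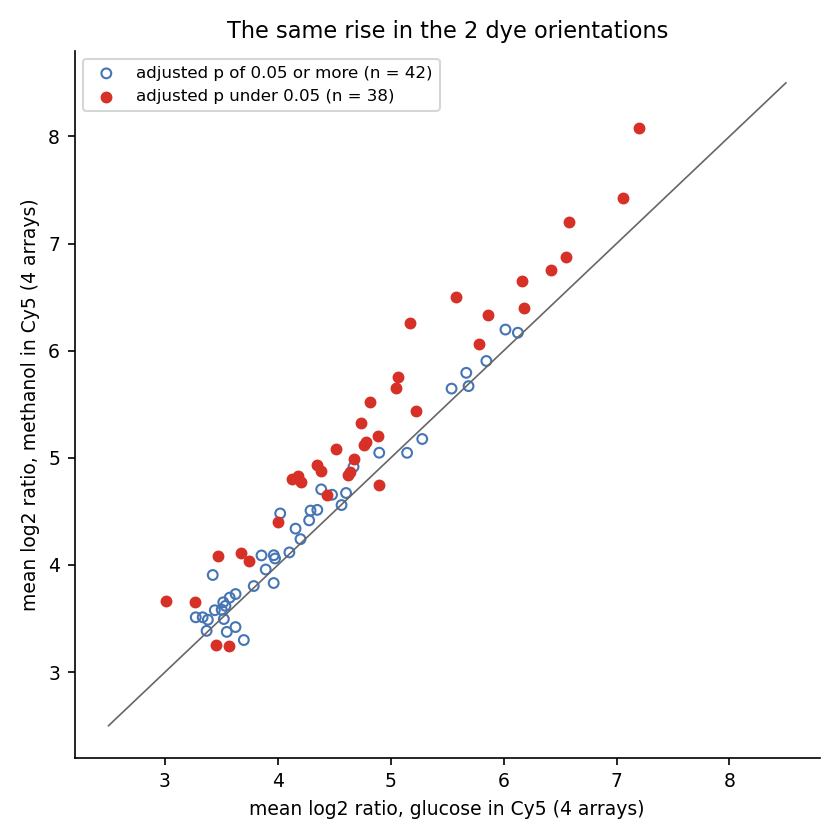
Mean log2 ratio of methanol to glucose over the 4 arrays with glucose in Cy5 (x axis) and the 4 with methanol in Cy5 (y axis) for the 80 genes. Filled points are the 38 genes whose ratio differed between orientations (adjusted p under 0.05), open points the other 42, and the line marks equal ratios. Most filled points lie above the line.

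An identifier gives the contig of a gene and its number on it. The sources used here do not state that the numbers follow the order of the genes along the contig, so nearness below means nearness of numbers. Of the 80 genes, 72 have a contig number, on 23 of 57 contigs, and the other 8 carry identifiers without one. Another member lay within 5 numbers on the same contig for 23 of these 72 (31.9%), while 4.48% of all 5825 genes with a contig number had a member that near. Of the 95 other genes over 10-fold with a contig number, 13 (13.7%) lay that near to one of the 80. The 23 genes formed 11 runs. Besides the urea pair and the pair Hp24g666 and Hp24g668, these joined Hp27g539 with Hp27g541 (polyol dehydrogenases by their matches) and Hp27g552 with Hp27g554 (a sugar transporter and a pentose phosphate isomerase).

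Among the 11 runs, the genes of 6 shared the culture with the largest rise, those of 5 the culture with the smallest, those of 4 both and those of 4 neither. Members that are not neighbours can share these cultures too. Over all members the largest rise fell in cultures 1 to 4 for 21, 8, 41 and 10 genes, and the smallest for 27, 28, 2 and 23. Whether the runs shared a culture more often than other members do was not tested. Hp25g638, without a match, had log2 rises of 3.04, 4.33, 4.73 and 4.69 and the permease Hp25g640 had 2.94, 4.03, 4.64 and 4.46. Both were lowest in culture 1 and highest in culture 3. Hp39g789, without a match, and the chitin deacetylase-like Hp39g790 were both lower in cultures 1 and 2 than in cultures 3 and 4. The urea pair shared neither, with the amidolyase-like gene highest in culture 1, where the transporter-like gene was lowest. The single run of 3 was Hp9g429, Hp9g430 and Hp9g432, with rises of 78.3-fold, 37.5-fold and 105-fold, each largest in culture 4. It placed a gene of unnamed function and the mandelate racemase-like gene on either side of the CAT8-like gene.

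The genes numbered next to a member were a mix of genes that rose, fell or were not called. Within 2 numbers of a member lay 98 other genes, of which 35 were called up (35.7%, against 19.1% of all genes) and 14 were called down (14.3%, against 21.4%). Their median log2 ratio was 0.70, and 8 of them were among the other genes over 10-fold. Without these 8, 27 of 90 were called up. Within 5 numbers 75 of 238 were called up (31.5%), and within 10 numbers 118 of 458 (25.8%). Some of the 8 have a match like that of their neighbour. Hp33g86 (log2 ratio 7.14), like Hp33g87, is related to the myo-inositol transporter, and Hp13g48 (7.37), next to the SUC1-like Hp13g47, is annotated as a maltose permease. Not all neighbours moved with a member. Hp15g1009, next to Hp15g1010, fell by 4.87 on the log2 scale, and Hp15g429, next to Hp15g430, by 4.01; these 2 were named after their values were seen.

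The numbers on contigs 27 and 9 held 5 of the 11 runs, and the stretches described here were picked after their values were seen. From number 531 to 626 on contig 27, 8 of 36 genes were members, and of the 28 others 14 were called up (50%) and 2 down. Hp27g557, a dihydroxyacetone kinase by its match, lay between members with a log2 ratio of 2.77 and a glucose level of 4.90. From number 402 to 432 on contig 9, 5 of 17 genes were members, and of the 12 others 10 were called up (83.3%) and none down, among them the amino acid permease-like Hp9g418 with a log2 ratio of 3.00.

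**Figure D5:**
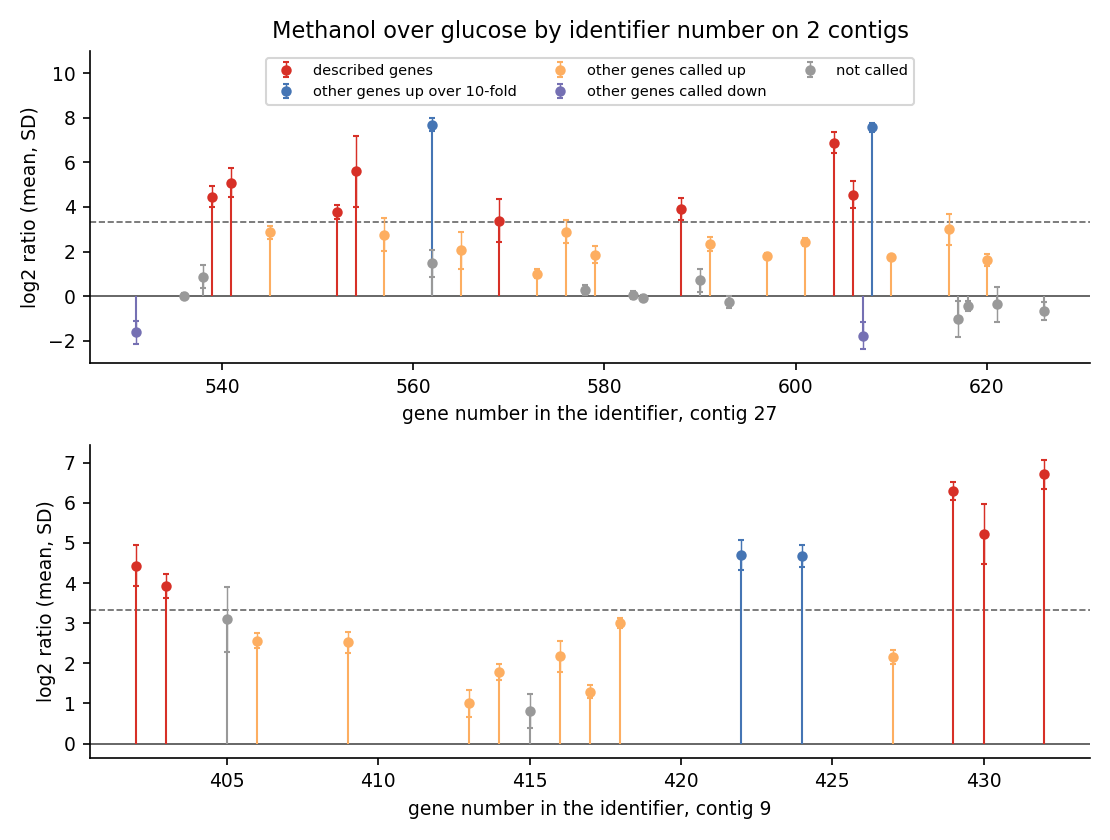
Log2 ratio of methanol to glucose (y axis, mean and SD of 4 cultures) by gene number in the identifier (x axis) for 36 genes of contig 27 (top) and 17 genes of contig 9 (bottom). The dashed line marks a 10-fold rise. Members (red) stand among other genes called up (orange) or up over 10-fold (blue), and 2 genes of the stretch on contig 27 were called down.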

How the data were processed

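Total RNA of 4 glucose cultures and of the same cultures after 2 h on methanol was labelled with Cy3 and Cy5 and hybridised to 2-colour arrays with 2 spots for each of 5999 gene probes, all on 1 slide. The deposited array files hold spot intensity values from Feature Extraction 9.5.3.1. The authors chose a setting with spatial detrending and without a separate background subtraction, applied dye normalisation, and did not pool replicates. The processed signals used for the main values carry these steps. In them the median negative control spot read 0.97 to 2.91 on the log2 scale in the glucose channel, so little background was left. The alternative with loess on mean signals started from signals before these steps. The log10 ratio of red to green, deposited by the authors per spot, and the deposited table of log10 ratios of the series were used as alternatives only; in that table each value stood 5 spots off its feature and was matched through the array files. Flags on spots were deposited as other values.

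Processed signals were taken to log2, outlier-flagged spots were left out, saturated spots were kept, and spots, dye swaps and cultures were averaged in that order. The outlier flags touched 3 of the 80 genes, and no gene lost an array. Calls used limma 3.58.1 on 1 log2 ratio per culture (n = 4; over 2-fold, Benjamini-Hochberg adjusted p under 0.05, A-value of at least 6), tested on simulated data first. The dye orientation was tested by limma on the difference between the 2 arrays of a culture. Glucose and methanol samples were paired by culture, since the labels give each pair 1 replicate number. Their departures from the group means correlated with r from 0.25 to 0.45. Both samples of a pair also lie on the same arrays, so this correlation cannot show a shared culture. Precision is limited by there being 8 arrays of 4 cultures, and dye swaps are not separate cultures.

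The genes and lists were chosen with earlier results of these data known. Genes were named if among the 5 with the largest rise, the lowest glucose or the highest methanol level, in a list, among the 3 most or least variable or most dye-dependent, at a limit of the choice, or in a run of 3; others were named where stated, or as partners in a run. Alternatives were other background corrections and normalisations, single dye orientations, cultures left out, and other limits and tests. Probe sequences and genome positions were not used here, since no identifier matched the reference table.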

Additional observations from a re-analysis of the deposited data

Results flagged for a closer look

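In 5 of the 43 genes followed by name, 1 of the 4 cultures lay far from the other 3, with a gap above the 95% critical value of Dixon's test. Chance flags about 1 in 20 such groups of 4. Culture 1 was low for 3 of them: the log2 rise there was 3.21 for Hp27g554, 3.17 for Hp12g435 and 3.75 for Hp27g539. Culture 3 was high for the other 2, with a log2 rise of 3.97 for Hp51r2269 and 4.08 for Hp35g9. Over all 80 genes 6 were flagged.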

How the results depend on the processing

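No alternative reversed a rise among the 43 genes followed by name. The median log2 rise moved from 4.54 to 3.95 with normexp and loess and to 4.13 with loess on mean signals without background subtraction, and lay between 4.48 and 4.63 with 1 culture left out. With 1 culture left out, 75 to 80 of the genes rose at least 10-fold. A difference between dye orientations was called for 25 to 36 genes with 1 culture left out, against 38 with all; the lowest count, 25, came without culture 2, when 18.5% of all genes were called. With fewer cultures fewer genes were called overall. Calls among other genes near the 80 numbered 75 within 5 numbers and 118 within 10, against 35 within 2, since more genes lie within a larger distance. With 1 culture left out the calls numbered 35 to 36 among the neighbours, 15 among complex I genes, 33 to 35 among polyol and sugar genes and 20 to 21 among nitrogen compound genes. Not being well above background on at least 1 array, which held for 13 genes, became 63 when the highest negative control spot was the limit, and 2 when the median control spot was, an alternative chosen after seeing the data. Without the replicate block, that is, with glucose and methanol unpaired, 35 neighbours, 15 complex I genes, 35 polyol and sugar genes and 20 nitrogen compound genes were called up and all 80 genes kept their rise, as with it. Over all genes 1149 were up and 1286 down, against 1145 and 1283 with the block. Dim signals limit the rises of the 13 genes not measured above background on every glucose array, and not only of these. Hp27g604 and Hp26g416 were above background on all 8 glucose arrays, but came to 58.5-fold and 53.4-fold after normexp, from 118-fold and 96.0-fold. Under that setting 54 of the 80 genes stayed at 10-fold or more.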
